A study of Mus musculus with 20 samples.

Results

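The Fc receptor genes described here are Fcgr1, Fcgr3, Fcgr4, Fcgr2b, Fcer1g, Fcgrt and Fcrls. They are 7 of 23329 gene symbols in an RNA-seq count table of macrophages, microglia and monocytes sorted from mouse gliomas, from normal brain or from blood, and were taken by symbol. All 7 were among the 15363 symbols that passed the filter on low counts. The 20 libraries, from mice of strain C57BL/6, fall into 6 groups. Bone-marrow-derived macrophages (BMDM, n = 3) and microglia (MG, n = 3) came from tumours of the mouse glioma line GL261, and BMDM (n = 3) and MG (n = 3) from a genetically engineered mouse model (GEMM). MG of normal brain (n = 3) and Ly6c-high blood monocytes (n = 5) completed the set. In the GEMM, Flt3:Cre Rosa26:mTmG mice of 5 to 6 weeks received in the right frontal cortex DF1 cells, a chicken fibroblast line, carrying RCAS-PDGFB-HA mixed with DF1 cells carrying RCAS:shP53. The Flt3:Cre reporter turns descendants of blood progenitors from red (TdTomato) to green (GFP) fluorescence. Among CD45+ CD11b+ Ly6c- Ly6g- cells, MG were sorted as GFP- TdTomato+ and BMDM as GFP+ TdTomato-. The sources used here do not give how GL261 tumours were made, whether their hosts carried the reporter, or the ages of the mice of normal brain and blood. Cell suspensions were incubated with an Fc block, which occupies IgG receptors, before staining and sorting.

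Fc receptors bind the constant part of antibodies and link them to phagocytosis, killing and cytokine release. In mouse, the proteins of Fcgr1 (high affinity), Fcgr3 and Fcgr4 are activating receptors for IgG that signal through the immunoreceptor tyrosine-based activation motif (ITAM) of the common gamma chain, which Fcer1g encodes. The protein of Fcgr2b is the inhibitory IgG receptor and recruits the phosphatase SHIP1, the product of Inpp5d. Fcgrt encodes the heavy chain of the neonatal Fc receptor, which pairs with beta-2 microglobulin and returns IgG from endosomes to the cell surface, and Fcrls encodes an Fc receptor-like protein known in mouse as a marker of microglia.

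Library totals were 18850626 to 22088979 counts in GL261 BMDM, 18113450 to 20934656 in GL261 MG, 30048409 to 32913488 in GEMM BMDM, 23064781 to 36297826 in GEMM MG, 26421803 to 30391652 in normal MG and 5077787 to 7801073 in blood monocytes. The microglia markers, 8 of 8 measured and none at 0 in any group, summed to 30878 ± 2224 CPM (a count relative to the library total after TMM scaling; SD, n = 3) in normal MG and to 304 ± 35.3 CPM (n = 5) in blood monocytes. GL261 tumour 80769 stood apart. Its BMDM had 22708 CPM of Chi3l3, a macrophage lectin gene now named Chil3, where the other GL261 BMDM libraries had 25.9 and 30.2 CPM, and its MG had 4419 CPM where the others had 0.0428 and 1.24. Blood monocytes differed from every other group in sex, with Xist at 142 to 645 CPM in monocytes and at 2.88 CPM or less in every other library, so that sex and cell type cannot be told apart in comparisons with them. They also carried neutrophil markers, 8 of 8 measured and none at 0 in the group, at 1902 to 23185 CPM, where sums elsewhere reached 634 CPM, and in monocyte libraries 64820 and 64821 the ribosomal gene Rn45s took 13.5% and 14.3% of counts. In sorted bulk cells, fewer cells of a type and less RNA per cell cannot be told apart.

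The Fc receptor genes did not shift as a block between groups. In MG of both tumour kinds, Fcgr4 and Fcgr2b were higher than in normal MG, Fcer1g was higher in GEMM MG, and Fcgr3 and Fcrls were lower in GL261 MG. Between BMDM and MG of a tumour, the called genes and their direction were not the same in the 2 models. GL261 BMDM exceeded GL261 MG in Fcgr2b, Fcer1g and Fcgr3, whereas GEMM BMDM were below GEMM MG in Fcgr3 and Fcrls. Against blood monocytes, all 7 genes were higher in BMDM of either model.

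Counts of calls (edgeR quasi-likelihood test, Benjamini-Hochberg adjusted p under 0.05 over 15363 genes) stand beside the share of all genes called in the same comparison. GL261 BMDM against GL261 MG gave 3 of 7 members higher, against 10.7% of all genes higher, 6.81% lower and 17.5% in either direction. GEMM BMDM against GEMM MG gave 2 of 7 lower, against 8.10% lower and 20.8% in either direction. The difference between these 2 contrasts, GL261 minus GEMM, was called for 3 of 7 members, all positive, where 0.605% of all genes were positive, 1.02% negative and 1.63% were called in either direction. GL261 MG against normal MG gave 2 higher and 2 lower where 30.6% of genes were higher, 27.2% lower and 57.8% called, and GEMM MG against normal MG 3 higher where 23.0% were higher and 43.8% called. GL261 MG against GEMM MG gave 3 lower where 15.5% were lower and 34.3% called. GL261 BMDM against GEMM BMDM gave 2 higher and 1 lower where 10.2% were higher, 9.46% lower and 19.7% called. BMDM against blood monocytes gave 7 of 7 higher in both models, where 34.1% of genes were higher for GL261 and 31.6% for GEMM, 28.9% and 25.7% were lower, and 63.0% and 57.3% were called in either direction. The 2 contrasts with normal MG share their normal libraries, and the 2 with monocytes share theirs.

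**Figure D1:**
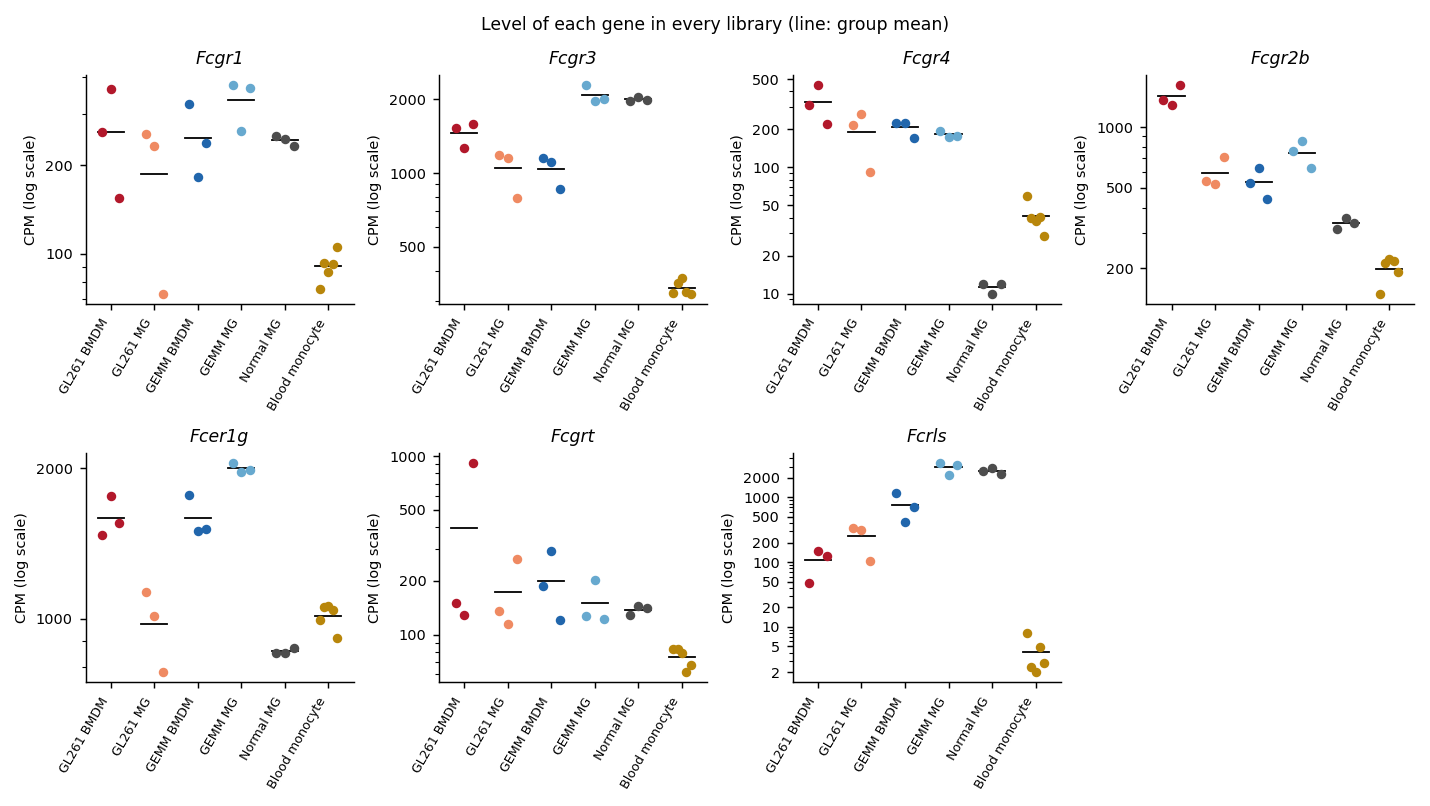
CPM (log axis) of the 7 genes in every library by group, with a line at the group mean (n = 3, or 5 for blood monocytes). Fcgr4 lay at 9.98 to 12 CPM in normal MG and at 92.2 to 449 CPM in all tumour libraries, and Fcrls at 2202 CPM or more in GEMM MG and normal MG and at 336 CPM or less in all GL261 libraries.

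Fcgr1 lies on chromosome 3 (chr3:96282909-96293969 of GRCm38, minus strand). Promoter windows were taken from 250 bases before to 50 after the start in RefSeq on GRCm38.p6. Those of Fcgr4 (chr1:171018676-171018975, plus strand) and Fcgr3 (chr1:171059354-171059653, minus strand) are shown because they held the GAGGAA matches nearest to a start, the core bound by the myeloid factor PU.1. Capitals mark the matches, on either strand.
Fcgr4: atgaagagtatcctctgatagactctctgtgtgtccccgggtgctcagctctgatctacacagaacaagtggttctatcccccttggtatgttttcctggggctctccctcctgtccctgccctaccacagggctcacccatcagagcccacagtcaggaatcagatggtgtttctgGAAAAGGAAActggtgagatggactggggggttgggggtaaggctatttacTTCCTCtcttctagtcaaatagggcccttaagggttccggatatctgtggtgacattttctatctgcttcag
Fcgr3: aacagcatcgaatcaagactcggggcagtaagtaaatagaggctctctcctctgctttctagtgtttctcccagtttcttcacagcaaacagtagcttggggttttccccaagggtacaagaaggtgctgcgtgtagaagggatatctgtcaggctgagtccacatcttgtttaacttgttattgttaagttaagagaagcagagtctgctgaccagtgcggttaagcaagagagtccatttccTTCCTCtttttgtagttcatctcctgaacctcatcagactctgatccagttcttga
GAGGAA (here as TTCCTC) began 55 bases before the start in Fcgr1, 22 in Fcgr4 and 6 in Fcgr3, whose other start site has it at 15. The Fcgr4 window also held TTTC, any 2 bases and TTTC, the interferon-stimulated response form (ISRE), beginning at 73. Of 32851 promoter windows of the same length, 28.3% held GAGGAA, 3.44% the ISRE form and 7.81% TGANTCA, the AP-1 form. Of the other genes, Fcrls held GAGGAA beginning 144 bases before its start, and the windows of Fcgr2b, Fcer1g and Fcgrt held none of these 3 forms. No matches overlapped each other. A match describes letters only.

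Fcgr1, the high-affinity receptor gene, was at 260.3, 362 and 154 CPM in BMDM of GL261 tumours and at 256, 232 and 73.0 CPM in GL261 MG of tumours 80766, 80767 and 80769. In the GEMM it was at 324, 183 and 237 CPM in BMDM and at 375, 261 and 367 CPM in MG of tumours 68702, BB30101 and BB30105. Normal MG had 252, 245 and 232 CPM, and blood monocytes had 75.7, 92.8, 86.5, 92.2 and 106 CPM. Ranges overlapped between BMDM and MG in both models, and the MG of tumour 80769 lay just below the lowest monocyte library. No call was made for Fcgr1 between BMDM and MG, with log2 differences of 0.47 (95% interval −0.27 to 1.21, adjusted p = 0.372) in GL261 and −0.43 (−1.16 to 0.30, adjusted p = 0.422) in GEMM. Nor was one made for GL261 MG (−0.38 ± 0.35, SE, adjusted p = 0.366) or GEMM MG (0.46 ± 0.35, adjusted p = 0.304) against normal MG. Against monocytes, Fcgr1 was higher by 1.52 ± 0.31 on the log2 scale in GL261 BMDM (adjusted p = 0.000355) and by 1.45 ± 0.31 in GEMM BMDM (adjusted p = 0.000609). GL261 MG against GEMM MG missed the threshold at −0.84 ± 0.35 (adjusted p = 0.0734).

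Fcgr3, the low-affinity activating receptor gene (chr1:171051174-171064935, minus strand, GRCm38), was the most abundant of the 4 IgG receptor genes per length of exon in every group. It was at 1522, 1269 and 1585 CPM in the GL261 BMDM libraries, against 1189, 1155 and 791 CPM in GL261 MG. GEMM BMDM had 1155, 1110.2 and 859 CPM and GEMM MG 2287, 1965 and 2012 CPM. Normal MG had 1975, 2037 and 1985 CPM, and monocytes 325, 356, 374, 328 and 322 CPM. GEMM MG and normal MG shared the top level, the groups did not overlap between BMDM and MG in either model, and the order of BMDM and MG was opposite in the 2 models. Each of the 3 GL261 tumours had more Fcgr3 in BMDM, at 1.10 to 2.01 times its MG, and each of the 3 GEMM tumours less, at 0.427 to 0.565 times. In GL261 this depended on the TMM scaling. With plain library totals, tumour 80767 had less Fcgr3 in BMDM than in MG (1307 against 1443 CPM), and the GL261 BMDM and MG ranges overlapped.

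In tests, Fcgr3 was 2.01-fold lower in GEMM BMDM than in GEMM MG (log2 −1.0 ± 0.16, SE, adjusted p = 0.000298) and 1.40-fold higher in GL261 BMDM than in GL261 MG (0.48 ± 0.16, adjusted p = 0.04996). The GL261 value is at the edge of the threshold. It passed no longer without any 1 library of the contrast other than BMDM 80767. It was 0.25 with adjusted p = 0.342 without tumour 80769, and in the 12 tumour libraries alone it was 0.48 (adjusted p = 0.139) without and 0.49 (adjusted p = 0.102) with the tumour as a block. The difference between the models was 1.49 ± 0.23 (adjusted p = 0.00439). It fell short in the 12 tumour libraries alone without a block (1.48, adjusted p = 0.0778) and passed there with the tumour as a block. Set against normal MG, Fcgr3 was lower in GL261 MG by 0.94 on the log2 scale (−0.94 ± 0.16, 1.91-fold, adjusted p = 0.00011), while GEMM MG differed by 0.06 (95% interval −0.28 to 0.41, adjusted p = 0.784). GL261 MG were 2.00-fold below GEMM MG (−1.0 ± 0.16, adjusted p = 0.000219). GL261 BMDM were above GEMM BMDM by 0.49 ± 0.16 (adjusted p = 0.0439), a call lost without GL261 BMDM 80766 (0.47, adjusted p = 0.109) or 80769 (0.38, adjusted p = 0.198) and without any 1 GEMM BMDM library, down to 0.32 (adjusted p = 0.27) without BB30105. NK cells also use Fcgr3. Their markers, 6 of 6 measured and none at 0, summed to 68.3 to 118 CPM in GL261 BMDM against 7.91 to 20.9 in GL261 MG, and to 61.7 to 184 CPM in GEMM BMDM against 5.02 to 11.2 in GEMM MG. The sums were higher in BMDM of both models, and their part in the Fcgr3 values was not tested.

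Fcgr4, which encodes the activating receptor of mouse that prefers IgG2 subclasses (chr1:171018920-171029761, plus strand, GRCm38), set BMDM and MG of tumours apart from normal MG. The BMDM of GL261 tumours had 314, 449 and 220.4 CPM and GL261 MG 218, 266 and 92.2 CPM. GEMM BMDM had 226, 226 and 171 CPM and GEMM MG 195, 174 and 178 CPM. Normal MG had 11.9, 9.98 and 12 CPM, and monocytes 59.8, 39.4, 37.3, 40.2 and 28.7 CPM. The lowest tumour library lay above the highest monocyte library, and every monocyte library lay above normal MG.

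Relative to normal MG, Fcgr4 was 17.0-fold higher in GL261 MG (log2 4.09 ± 0.35, adjusted p = 6.72e-08) and 16.1-fold higher in GEMM MG (4.01 ± 0.35, adjusted p = 1.64e-07). GL261 MG and GEMM MG differed by 0.07 on the log2 scale (95% interval −0.58 to 0.73, adjusted p = 0.881). Between BMDM and MG no call was made, at 0.77 ± 0.31 in GL261 (adjusted p = 0.0971) and 0.18 ± 0.31 in GEMM (adjusted p = 0.723). With the tumour as a block the GL261 value passed, at 0.84 (adjusted p = 0.0109), and Fcgr4 was higher in BMDM of 3 of 3 GL261 tumours at 1.44 to 2.39 times the MG level. Against monocytes Fcgr4 was 7.96-fold higher in GL261 BMDM (2.99 ± 0.28, adjusted p = 7.3e-08) and 5.04-fold higher in GEMM BMDM (2.33 ± 0.28, adjusted p = 1.5e-06). Neutrophils also express Fcgr4. Their markers, 8 of 8 measured, with Camp at 0 in GEMM MG and normal MG and Ngp at 0 in GL261 MG, summed to 106 to 289.7 CPM in GL261 MG. The sums were 336 to 444 CPM in GEMM MG and 595 to 634 CPM in normal MG. The part of neutrophils in the Fcgr4 values was not tested.

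**Figure D2:**
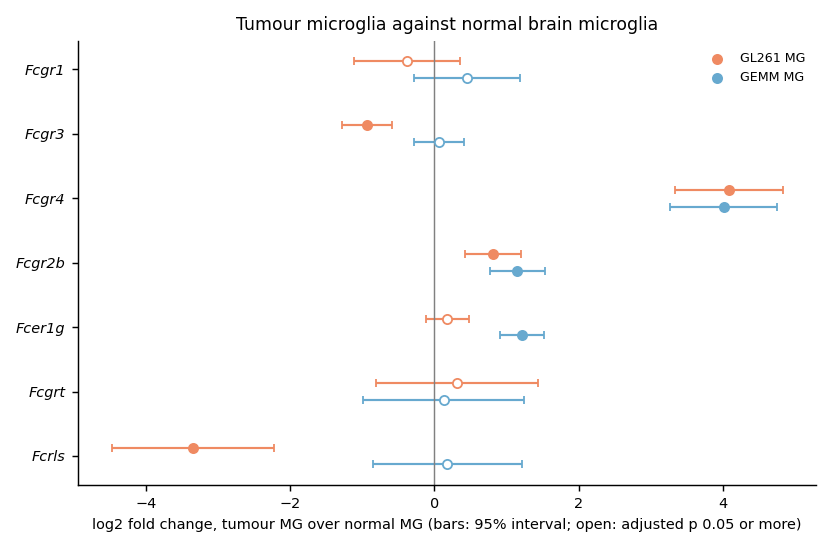
Log2 fold change of each gene in GL261 MG and GEMM MG over normal MG, with 95% intervals (n = 3 libraries a group). Filled points passed the adjusted p of 0.05, and Fcgr4 stood at 4.09 and 4.01 while Fcrls stood at −3.35 in GL261 MG and 0.18 in GEMM MG.

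Fcgr2b, the inhibitory receptor gene (chr1:170958617-170976547, minus strand, GRCm38), was highest in GL261 BMDM. These had 1364, 1282 and 1614 CPM, against 539, 524 and 711 CPM in GL261 MG. GEMM BMDM had 528, 629 and 442 CPM and GEMM MG 759.6, 851 and 630.0 CPM. Normal MG had 314, 357 and 337 CPM, and monocytes 149.9, 214, 224, 218 and 191 CPM. All GL261 BMDM libraries lay above every other library of the series, and all tumour libraries lay above normal MG and monocytes.

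Part of the coding sequence of Fcgr2b is identical to Fcgr3. Of the 50-base windows of the Fcgr3 coding sequence (GENCODE M21, GRCm38), 22.07% also occur in Fcgr2b, and 17.1% of the Fcgr2b windows occur in Fcgr3. No other pair among Fcgr1, Fcgr3, Fcgr4, Fcgr2b and Fcrls shares such a window. The longest shared run is shown because a read lying wholly within it cannot be assigned to either gene. It has 129 bases, at positions 278 to 406 of the Fcgr2b and 263 to 391 of the Fcgr3 coding sequence (counted from the first base of the start codon).
Fcgr2b and Fcgr3: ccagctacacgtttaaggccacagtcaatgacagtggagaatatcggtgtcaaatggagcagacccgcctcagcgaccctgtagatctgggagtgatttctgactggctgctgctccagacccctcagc
The window shares are of coding sequence, 1020 bases in Fcgr2b, and not of its merged exons, 5790 bases. They do not give the share of counts affected in either gene, which was not tested. Fcgr2b also shares 155 exonic bases with the antisense gene Gm38204, and the sources used here do not state the strand setting of the counting.

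Fcgr2b was 2.40-fold higher in GL261 BMDM than in GL261 MG (log2 1.26 ± 0.18, adjusted p = 0.00015), at 2.27 to 2.53 times the MG level in the 3 tumours. In GEMM it was −0.49 ± 0.18 in BMDM against MG (adjusted p = 0.068), at 0.695 to 0.740 times, and with the tumour as a block the adjusted p was 0.02. The difference between the models was 1.75 ± 0.26 (adjusted p = 0.0028) with all libraries and 1.8 (adjusted p = 0.00168) without tumour 80769. GL261 BMDM were 2.66-fold above GEMM BMDM (1.41 ± 0.19, adjusted p = 6.26e-05), and GL261 MG differed from GEMM MG by −0.34 (95% interval −0.72 to 0.05, adjusted p = 0.164). Against normal MG, Fcgr2b rose in GL261 MG by 0.82 ± 0.18 (1.76-fold, adjusted p = 0.00101) and in GEMM MG by 1.15 ± 0.18 (2.22-fold, adjusted p = 7.81e-05). Against monocytes it was 7.13-fold higher in GL261 BMDM and 2.67-fold higher in GEMM BMDM (adjusted p = 2.34e-10 and 7.88e-07). B cells also carry Fcgr2b. Their markers, 6 of 7 measured, summed to 15.1 to 36.6 CPM in GL261 BMDM, 8.15 to 17.2 in GL261 MG, 36 to 40.9 in GEMM BMDM, 25.2 to 33.6 in GEMM MG, 25.1 to 40.2 in normal MG and 91.0 to 660.0 CPM in blood monocytes. The part of B cells in the Fcgr2b values was not tested.

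**Figure D3:**
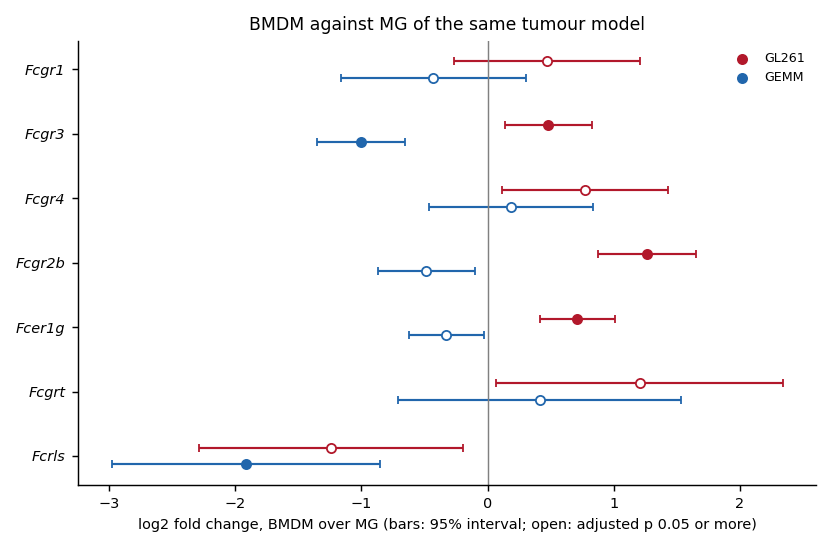
Log2 fold change of each gene in BMDM over MG for GL261 and GEMM, with 95% intervals (n = 3 libraries a group). Filled points passed the adjusted p of 0.05, and Fcgr3, Fcgr2b and Fcer1g lay at 0.48, 1.26 and 0.71 in GL261 and at −1.0, −0.49 and −0.33 in GEMM.

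Per kilobase of exon, the make-up of the 4 IgG receptor genes moved from group to group. Fcgr2b took 17.0 ± 2.26% of their summed level in GL261 BMDM, 11.8 ± 5.4% in GL261 MG, 9.68 ± 1.15% in GEMM BMDM, 8.06 ± 1.42% in GEMM MG, 4.42 ± 0.219% in normal MG (SD, n = 3 each) and 11.5 ± 1.50% in monocytes (n = 5). Per kilobase of coding sequence these shares were 36%, 26.3%, 22.7%, 19.0%, 10.8% and 25.9%, in the same order of groups. The size of the share thus depends on the length used. Per kilobase of exon, GL261 MG of tumour 80769 had an Fcgr2b share of 18.1%, where the other GL261 MG had 8.86% and 8.56%. Fcgr4 took 15.8 ± 4.67% in GL261 MG and 9.05 ± 0.14% in GEMM MG, against 0.686 ± 0.080% in normal MG. Fcgr3 held 58.1 ± 6.97% in GL261 BMDM, 62.9 ± 1.07% in GEMM BMDM, 65.0 ± 2.04% in GL261 MG and 74.9 ± 0.402% in GEMM MG, against 87.7 ± 0.154% in normal MG. Normal MG libraries thus lay above every tumour library in the Fcgr3 share and below every one in the Fcgr4 and Fcgr2b shares. These are descriptions of levels, with no test.

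**Figure D4:**
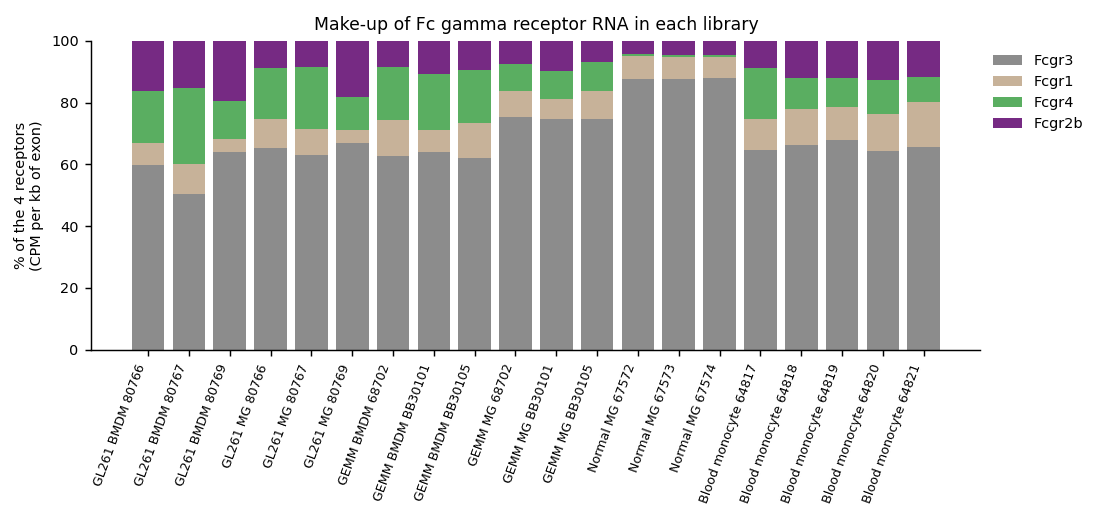
Share of Fcgr3, Fcgr1, Fcgr4 and Fcgr2b in their summed CPM per kilobase of merged exon, in percent, 1 bar a library. Normal MG bars are nearly all Fcgr3 (87.7% on average), and the mean Fcgr2b share is largest in GL261 BMDM (17.0%).

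Fcer1g, the gene of the shared signalling chain (chr1:171229572-171234365, minus strand, GRCm38), had 1469, 1764 and 1551 CPM in GL261 BMDM, against 1128, 1012 and 781 CPM in GL261 MG. GEMM BMDM had 1768, 1498 and 1515 CPM and GEMM MG 2048, 1972 and 1986 CPM. Normal MG had 855, 854 and 874 CPM, and monocytes 992, 1055, 1060.3, 1041 and 912 CPM. BMDM of the 2 models stood at the same mean level, 1594 CPM, and it was MG that differed, GEMM MG being above all BMDM libraries and GL261 MG below them.

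GL261 BMDM exceeded GL261 MG 1.64-fold in Fcer1g (log2 0.71 ± 0.14, adjusted p = 0.002), in 3 of 3 tumours. GEMM BMDM were at −0.33 ± 0.14 against GEMM MG (adjusted p = 0.112), lower in 3 of 3 tumours. The difference between the models was 1.04 ± 0.20 (adjusted p = 0.0139). It fell short without GEMM BMDM BB30101 (0.98, adjusted p = 0.0612), without GEMM BMDM BB30105 (0.98, adjusted p = 0.0541) and in the 12 tumour libraries alone, both without a block (1.04, adjusted p = 0.121) and with the tumour as a block (1.05, adjusted p = 0.0606). GL261 MG were 2.06-fold below GEMM MG (−1.04 ± 0.14, adjusted p = 4.98e-05), and GL261 BMDM against GEMM BMDM gave 0.00 (95% interval −0.30 to 0.30). Against normal MG, GEMM MG were 2.33-fold higher (1.22 ± 0.14, adjusted p = 3.62e-06), and GL261 MG stood at 0.18 ± 0.14 (adjusted p = 0.296). Against monocytes the rise was 0.66 ± 0.12 in both GL261 BMDM (adjusted p = 0.000197) and GEMM BMDM (adjusted p = 0.000233), the smallest of the 7 genes in each. Per kilobase of exon, Fcer1g had 1.52 ± 0.139 times the sum of Fcgr1, Fcgr3 and Fcgr4 in GL261 BMDM, 1.38 ± 0.205 in GL261 MG, 2.14 ± 0.241 in GEMM BMDM, 1.56 ± 0.099 in GEMM MG, 0.785 ± 0.019 in normal MG and 4.38 ± 0.172 in monocytes. Mast cells and basophils also use Fcer1g. Their markers, 7 of 7 measured, summed to 22.8 to 152 CPM in GL261 BMDM against 2.92 to 13.3 in GL261 MG, where Ms4a2 and Cma1 were at 0, and to 26 to 405 CPM in GEMM BMDM against 0.930 to 80.7 in GEMM MG. Their part in the Fcer1g values was not tested.

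Fcgrt, the gene of the neonatal Fc receptor (chr7:45092990-45103851, minus strand, GRCm38), was set apart by 1 tumour. GL261 BMDM had 151, 128 and 911 CPM and GL261 MG 136, 114 and 266 CPM, the highest of each being tumour 80769. GEMM BMDM had 188, 293 and 121 CPM and GEMM MG 127, 203 and 122 CPM. Normal MG had 129, 144 and 141 CPM, and monocytes 83.1, 83.3, 78.6, 61.7 and 67.7 CPM. Apart from tumour 80769, levels of BMDM and MG overlapped in both models, and all monocyte libraries were lower than all others. No comparison among the macrophage groups gave a call, with GL261 BMDM against GL261 MG at 1.2 ± 0.54 (adjusted p = 0.132), and at 0.16 (adjusted p = 0.794) without tumour 80769. Without GL261 BMDM 80767 alone the value was 1.66 and passed (adjusted p = 0.0335).

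Against monocytes, Fcgrt was 5.29-fold higher in GL261 BMDM (log2 2.40 ± 0.47, adjusted p = 0.000269), a log2 value that was 0.91 (adjusted p = 0.00436) without tumour 80769. It was 2.68-fold higher in GEMM BMDM (1.42 ± 0.47, adjusted p = 0.0155), a call lost without GEMM BMDM BB30101 (1.08, adjusted p = 0.0877) and without the 2 monocyte libraries high in Rn45s (1.28, adjusted p = 0.0728). Markers of border-associated macrophages, the macrophages of meninges and vessels, and of endothelial cells moved with the high libraries. For border-associated macrophages, all 6 of 6 were measured and none was at 0 in any group. Their sum was 3715 CPM in GL261 BMDM of tumour 80769, where the others had 515 and 380 CPM, and 744 CPM in its MG, where the others had 51.6 and 25.0 CPM. Mrc1 (2171 CPM) and Cd163 (890.0 CPM) led the sum in the BMDM of that tumour. Each of the 6 was higher there than in the other GL261 BMDM libraries. Yet Lyve1 was at only 2.79 CPM, where normal MG had 3.56 to 8.70 CPM. Pf4 was at 150 CPM, where blood monocytes had 179 to 414 CPM. In GEMM BMDM the sum was 206 to 337 CPM. Blood monocytes, the group lowest in Fcgrt, had a sum of 216 to 434 CPM, so marker sum and Fcgrt did not go together across all groups. Endothelial markers, 6 of 6 measured and none at 0, summed to 338 CPM in the BMDM of tumour 80769, where the other GL261 BMDM had 144 and 86.3 CPM, and to 140.2 CPM in its MG, where the others had 74.8 and 33.9 CPM. In GEMM BMDM they were highest in BB30101, which also had the most Fcgrt, at 173 CPM where the others had 66.4 and 77.6 CPM. The sum of monocyte and recruited macrophage markers was also high in tumour 80769, through Chi3l3. It was 23099 CPM in its BMDM, nearly all of it Chi3l3, where the others had 614 and 530 CPM. Apart from Chi3l3, the markers of this list summed to less in the BMDM of tumour 80769 than in the other GL261 BMDM. Dendritic cell markers summed to 487 CPM in the BMDM of tumour 80769, where the others had 128 and 81.2 CPM, and to 485 to 1284 CPM in GEMM BMDM. The part of any of these kinds of cell in the Fcgrt values was not tested. Beta-2 microglobulin, the partner chain of the receptor, was highly expressed in all groups, and its gene B2m was higher in GL261 MG (5682 against 2373 CPM, log2 1.26 ± 0.19, adjusted p = 2.06e-05) and GEMM MG (8061 against 2373 CPM, 1.76 ± 0.19, adjusted p = 1.6e-06) than in normal MG.

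**Figure D5:**
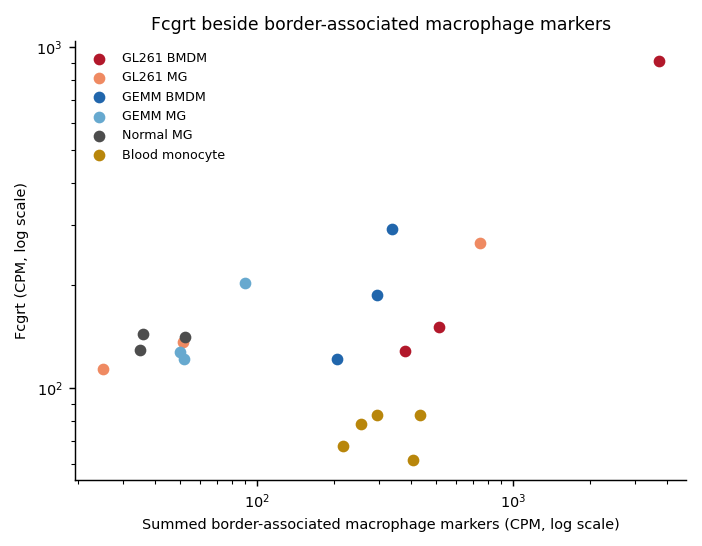
Fcgrt in CPM against the summed CPM of 6 border-associated macrophage markers, both log axes, 1 point a library. The BMDM and MG of GL261 tumour 80769 hold the highest marker sums, 3715 and 744 CPM, with Fcgrt at 911 and 266 CPM.

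Fcrls, the Fc receptor-like microglia marker (chr3:87250758-87263738, minus strand, GRCm38), spanned the widest range of the 7 genes. GL261 BMDM had 47.1, 147 and 126 CPM and GL261 MG 336, 315 and 105 CPM. GEMM BMDM had 1187, 418 and 709.5 CPM and GEMM MG 3374, 2202 and 3151 CPM. Normal MG had 2519.8, 2839 and 2339.9 CPM, and monocytes 8.04, 2.38, 2.01, 4.95 and 2.81 CPM. GEMM MG and normal MG overlapped at the top, GEMM BMDM came next, and even the GL261 MG libraries lay below the lowest GEMM BMDM library.

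Fcrls was 10.2-fold lower in GL261 MG than in normal MG (log2 −3.35 ± 0.54, adjusted p = 4.24e-05) and 11.5-fold lower than in GEMM MG (−3.53 ± 0.54, adjusted p = 0.000118), whereas GEMM MG against normal MG gave 0.18 ± 0.49 (adjusted p = 0.793). GL261 BMDM were 7.22-fold below GEMM BMDM (−2.85 ± 0.53, adjusted p = 0.00108). Within tumours, GEMM BMDM were 3.77-fold below GEMM MG (−1.92 ± 0.51, adjusted p = 0.0117), a call lost without GEMM BMDM BB30101 (−1.66, adjusted p = 0.064). GL261 BMDM against GL261 MG gave −1.24 ± 0.50 (adjusted p = 0.0942), and −1.74 (adjusted p = 0.0468) without tumour 80769, whose BMDM had 1.2 times the Fcrls of its MG. With plain library totals in place of TMM, the BMDM of tumour 80769 had slightly less Fcrls than its MG (123 against 135 CPM). Against monocytes, Fcrls was 26.2-fold higher in GL261 BMDM and 189-fold higher in GEMM BMDM (4.71 ± 0.49 and 7.56 ± 0.53, adjusted p = 2.36e-07 and 3.06e-09).

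The microglia markers, like Fcrls, had a lower mean in BMDM than in MG of each model. Their sum was 694 to 1502 CPM in GL261 BMDM, 2145 to 7939 CPM in GL261 MG, 2741 to 5326 CPM in GEMM BMDM and 12003 to 19865 CPM in GEMM MG, against 29389.9 to 33435 CPM in normal MG. GEMM MG thus lay below normal MG in the marker sum, without overlap, where their Fcrls ranges overlapped. The lowest MG value, like the lowest Fcrls value of GL261 MG, was in tumour 80769. Mean Fcrls in GEMM BMDM was 26.5% of the mean in GEMM MG, where the marker sum was 25.6% and single markers ranged from 7.05% (Slc2a5) to 32.5% (Olfml3). In GL261 BMDM it was 42.3% of the mean in GL261 MG, where the marker sum was 20.4% and single markers ranged from 0.820% (Slc2a5) to 33.5% (Olfml3). Whether microglia RNA in the BMDM sort contributed was not tested. Markers of oligodendrocyte precursors or glioma cells, 5 of 5 measured and none at 0, were higher in GL261 MG (363 to 782 CPM) than in GEMM MG (127 to 184 CPM) and normal MG (1.54 to 4.01 CPM), beside Fcgr3 and Fcrls levels in GL261 MG below both groups and an Fcer1g level below GEMM MG alone. Their part in those differences was not tested.

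The signalling genes that act with these receptors were followed as lists, whose counts stand against the shares of all genes called. Those shares were 30.6% higher and 27.2% lower in GL261 MG and 23.0% higher and 20.9% lower in GEMM MG against normal MG, and 18.8% higher and 15.5% lower in GL261 MG against GEMM MG. In BMDM against MG they were 10.7% higher and 6.81% lower in GL261 and 12.7% higher and 8.10% lower in GEMM. Of 29 ITAM kinases and adaptors tested, 3 were higher and 19 lower in GL261 MG than in normal MG (median log2 −0.98, against 0.01 over all genes), and 3 were higher and 6 lower in GEMM MG (−0.20 against −0.02). Fgr, a Src-family kinase of myeloid cells, was higher in both, at 31.9 CPM in GL261 MG and 101 CPM in GEMM MG against 4.48 CPM in normal MG (log2 2.83 ± 0.19, adjusted p = 4.12e-09, and 4.49 ± 0.20, adjusted p = 1.85e-10). Pik3r5, a regulatory subunit of PI3-kinase gamma, fell in both (−1.99 ± 0.25 in GL261 MG and −1.30 ± 0.24 in GEMM MG, adjusted p = 3.01e-06 and 0.000359). Between GL261 MG and GEMM MG, 1 of the 29 was higher and 17 lower, with Btk at −1.09 ± 0.19 (adjusted p = 0.000326) and the adaptor gene Lat2 at −0.98 ± 0.20 (adjusted p = 0.00118). In BMDM against MG, 8 were higher and 1 lower in GL261, and 6 higher and 2 lower in GEMM. Syk, the kinase that docks on the gamma chain, stood at 186 CPM in BMDM of GL261 against 82.7 CPM in MG (1.17 ± 0.23, adjusted p = 0.00165).

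Of 16 inhibitory phosphatases and adaptors tested, 3 were higher and 8 lower in GL261 MG than in normal MG (median −0.73), and 2 higher and 6 lower in GEMM MG (−0.42). The share higher was below that of all genes in both contrasts and the share lower above it. Inpp5d, whose SHIP1 acts downstream of Fcgr2b, was 331 CPM in GL261 MG against 1389 CPM in normal MG (−2.07 ± 0.30, adjusted p = 1.64e-05), while Fcgr2b was higher there. Lilrb4, an inhibitory receptor gene, was at 514 CPM in GL261 MG and 560.1 CPM in GEMM MG against 19.4 CPM in normal MG (4.73 ± 0.38 and 4.85 ± 0.38, adjusted p = 3.01e-08 and 5.68e-08). In BMDM against MG, 6 were higher and 1 lower in each model.

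The next list held partners of the gamma chain and of DAP12 and related receptors, with the DAP12 gene itself among them. Of 13 tested, 7 were higher and 2 lower in GL261 MG than in normal MG (median 2.00), and 9 higher and 0 lower in GEMM MG (3.58). Clec7a encodes the beta-glucan receptor Dectin-1, a related receptor and not a partner of either chain. It was at 697 CPM in GL261 MG and 1565 CPM in GEMM MG against 26.3 CPM in normal MG (4.73 ± 0.47 and 5.89 ± 0.49, adjusted p = 2.41e-07 and 1.03e-07). Clec4n, which encodes Dectin-2 and signals through the gamma chain, had 437 CPM in GL261 BMDM against 21.2 CPM in GL261 MG, and at 224 CPM in GEMM BMDM against 10.9 CPM in GEMM MG (4.37 ± 0.51 and 4.35 ± 0.51, adjusted p = 1.55e-05 and 1.13e-05). In BMDM against MG, 9 of the 13 were higher and 0 lower in GL261, and 6 higher and 2 lower in GEMM. Tyrobp, the gene of DAP12, was 2.38-fold lower in GL261 MG than in GEMM MG (1189.8 against 2832 CPM, −1.25 ± 0.17, adjusted p = 3.39e-05).

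Of 22 genes of the phagocytic cup and the oxidative burst tested, 12 were higher and 0 lower in GL261 BMDM than in GL261 MG (median 0.71, against −0.08 over all genes), and 5 higher and 1 lower in GEMM (0.25 against 0.01). The difference between the models was called for 1 of the 22, Cyba. In GL261 MG against GEMM MG, 0 were higher and 16 lower (−0.90 against 0.04), with the small GTPase genes Rac1 at 459 against 897 CPM (−0.97 ± 0.13, adjusted p = 2.87e-05) and Cdc42 at 732 against 1485 CPM (−1.02 ± 0.14, adjusted p = 5.63e-05). Against normal MG, 3 were higher and 9 lower in GL261 MG and 10 higher and 1 lower in GEMM MG. Cybb, the catalytic subunit of the NADPH oxidase, was higher in both, at 284 CPM in GL261 MG and 199 CPM in GEMM MG against 8.62 CPM in normal MG (5.04 ± 0.49 and 4.53 ± 0.48, adjusted p = 1.89e-07 and 1.17e-06).

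Of 14 interferon gamma responsive genes tested, 11 were higher and 1 lower in GL261 MG than in normal MG (median 2.74), 9 higher and 1 lower in GEMM MG (1.29), and 10 higher and 1 lower in GL261 MG than in GEMM MG (1.51). Irgm1, an interferon-induced GTPase gene, was at 876 CPM in GL261 MG, 195 CPM in GEMM MG and 94.5 CPM in normal MG. Fcgr1, a textbook target of interferon gamma, was not called by edgeR in the fit of all groups in any of these 3 comparisons. In GL261 MG against GEMM MG it was called lower by DESeq2 (adjusted p = 0.0491) and limma-voom (adjusted p = 0.0348), and in GEMM MG against normal MG it was called higher by edgeR with those groups alone (0.51, adjusted p = 0.0155). Of 11 partners of the neonatal receptor and endosomal sorting genes tested, B2m among them, 4 were higher and 4 lower in GL261 MG than in normal MG, and 4 higher and 0 lower in GEMM MG. Of 9 other Fc receptor genes tested, 3 were higher in GL261 BMDM than in GL261 MG and 4 in GEMM BMDM than in GEMM MG, and none was lower in either. Fcrlb, an intracellular Fc receptor-like gene, was at 59.5 ± 28.7 CPM in GL261 BMDM against 6.65 ± 6.76 CPM in GL261 MG (SD, n = 3 each; log2 3.16 ± 0.63, adjusted p = 0.00189). Fcrl1, a gene known from B cells, was at 10.5 ± 7.90 CPM in GL261 MG and 28.8 ± 4.2 CPM in GEMM MG against 107 ± 7.14 CPM in normal MG (−3.36 ± 0.71 and −1.90 ± 0.67, adjusted p = 0.000612 and 0.028).

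Across the 20 libraries, the members formed no single pattern. On the log2 (CPM + 1) scale, Pearson's r was 0.91 between Fcgr3 and Fcrls, 0.84 between Fcgr1 and Fcgr3, 0.74 between Fcgr4 and Fcer1g, 0.72 between Fcgr4 and Fcgr2b, and 0.13 between Fcgr4 and Fcrls. Libraries of 1 group share their cell type and their depth range, so these values describe the groups. Among 7250 genes with a mean of at least 20 CPM, the patterns nearest to Fcgr4 were Irg1, Axl and Itgax (r = 0.97, 0.96 and 0.96). Axl, a receptor kinase for dying cells, was at 1277 CPM in GL261 BMDM, 1326 CPM in GEMM BMDM, 794 CPM in GL261 MG and 827 CPM in GEMM MG, against 22.1 in normal MG. Nearest to Fcrls were Trem2, Dtx4 and Ptgs1 (0.98 each), and nearest to Fcgr3 were Acp2, Mertk and Kcnk13 (0.97 each). Fcgr2b had Cndp2, Adam9 and Wsb2 (0.96, 0.95 and 0.95), Cndp2 being at 571 CPM in GL261 BMDM against 255 in GL261 MG. Fcgr1 had Pla2g4a, Pik3ap1 and Evl (0.95, 0.93 and 0.92), and Fcer1g had M6pr, Ctsh and Dnajb11 (0.93, 0.93 and 0.91). Fcgrt had the lowest nearest values, with Ccl24 and Atpaf2 nearest (0.88 each). Ccl24 was at 29.9 to 3248 CPM among the 3 GL261 BMDM libraries.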

How the data were processed

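The values are raw counts per gene symbol, as deposited by the authors. They are whole numbers with unequal totals. Tools named in the submitters' processing notes, without role or order, are STAR 2.5.0e, HTSeq, CASAVA 1.8 and DESeq2, with the build mm10. The annotation and strand setting behind the counts are not stated in the sources used here. Groups and animal numbers came from the titles. Per the labels' protocols, libraries were made with the Smart-Seq kit from polyadenylated RNA, a method without molecular identifiers, so reads are not independent molecules.

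In R 4.3.3, edgeR 4.0.16 kept 15363 genes (filterByExpr, minimum count 10, minimum total 15), scaled by TMM, and fitted all 20 libraries and 6 groups by the robust quasi-likelihood method. CPM use the TMM-scaled totals. Errors on log2 values are standard errors derived from the F statistic. Alternatives used DESeq2 1.42.0, limma-voom (limma 3.58.1), RLE factors or plain totals, no filter, only the groups compared, a tumour block and single libraries left out. Leaving out tumour 80769, leaving out the 2 monocyte libraries high in Rn45s, and coding length were added after the data were seen. The fit was tried on simulated independent libraries with changes in GEMM BMDM alone, and only for GEMM BMDM against GEMM MG. The simulation thus did not cover the pairing by tumour or the model difference. The design text gives matched cells of 3 tumours, and libraries with the same number correlated across genes in their deviations from group means at r = 0.51, 0.35 and 0.49 in GL261 and 0.38, 0.37 and 0.28 in GEMM, so the numbers were taken to pair them. Libraries of 1 group differed beyond counting noise in every pair (chi-square over degrees of freedom at least 3.20). Titles carry animal numbers, and beyond them nothing says how separate the samples were, so p-values measure the spread between these samples.

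Named are the members, for each the 3 genes with the nearest pattern (some items are not reported here), and up to 4 genes of a list by smallest p. Inpp5d, Chi3l3, Xist, Rn45s, Mrc1, Cd163 and marker genes at the ends of ranges were named for their role or after their values were seen. Members and lists were chosen with earlier results of these data known. Coordinates and exon lengths are from GENCODE M21 (GRCm38), promoters from RefSeq (GRCm38.p6), and all 7 symbols matched.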

Additional observations from a re-analysis of the deposited data

Results flagged for a closer look

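Between the 2 tumour models, the difference of BMDM and MG itself differed by test (edgeR interaction contrast, adjusted p under 0.05) for 3 Fc receptor genes, in log2 units as GL261 minus GEMM. These were Fcgr2b at 1.75, Fcgr3 at 1.49 and Fcer1g at 1.04. In the 12 tumour libraries alone, without a block, only Fcgr2b passed. Among the signalling lists the test in all libraries gave 5 genes. Of 29 ITAM kinases and adaptors 2 were positive and 1 negative. Of 22 genes of the phagocytic cup and oxidative burst 1 was positive, and of 14 interferon gamma responsive genes 1 was negative. The other lists had no call. Of all genes, 0.605% were positive, 1.02% negative and 1.63% called in either direction. Lat2, an adaptor of ITAM signalling, was at 1.55, Fgr at 0.99 and Cyba, a subunit of the NADPH oxidase, at 0.94. Vav3, a guanine nucleotide exchange factor, was at −2.61 and Ciita, the master regulator of MHC class II genes, at −2.33. In GL261, Vav3 had 46.7 ± 4.28 CPM in BMDM and 14.6 ± 6.68 CPM in MG, and 41.9 ± 5.55 CPM in GEMM BMDM and 2.08 ± 1.15 CPM in GEMM MG (SD, n = 3 each), so BMDM were higher in both models. In GL261, Lat2 had 209 ± 35.2 CPM in BMDM and 151 ± 53.0 CPM in MG, and in GEMM 141 ± 18.9 CPM in BMDM and 296 ± 18.7 CPM in MG.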

How the results depend on the processing

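Counts of Fc receptor members called kept within 1.5 times of the reported count in most alternatives. In GEMM BMDM against MG the count of 2 became 4 with DESeq2 and 4 with RLE factors, which added Fcgr2b and Fcer1g. In GL261 BMDM against MG the count of 3 became 1 with only the groups compared, and the model difference of 3 became 1 with only the groups compared and 1 with the 12 tumour libraries without a block. Leaving out single libraries gave 2 to 4 in GL261 BMDM against MG, 2 to 3 in GEMM BMDM against MG, 2 to 3 in the model difference, 4 to 4 in GL261 MG and 3 to 3 in GEMM MG against normal MG, 3 to 4 in GL261 MG against GEMM MG, 2 to 3 in GL261 BMDM against GEMM BMDM, and 7 to 7 in GL261 BMDM and 6 to 7 in GEMM BMDM against monocytes. Without tumour 80769, chosen after the data were seen, counts were 3 in GL261 BMDM against MG, 3 in the model difference, 4 in GL261 MG against normal MG, 3 in GL261 MG against GEMM MG, 4 in GL261 BMDM against GEMM BMDM and 7 in GL261 BMDM against monocytes. No called member changed direction in any of these. DESeq2 and limma-voom also called Fcrls in GL261 BMDM against MG (adjusted p = 0.0461 and 0.046) and Fcgr1 in GL261 MG against GEMM MG (0.0491 and 0.0348). With the replicate block, which pairs libraries by tumour, Fcgr2b in GEMM (−0.49, adjusted p = 0.02) and Fcgr4 in GL261 (0.84, adjusted p = 0.0109) were gained. That fit held the 12 tumour libraries. Fcgr3 in GL261 and the Fcer1g model difference were lost in those libraries both with the block (0.49, adjusted p = 0.102, and 1.05, adjusted p = 0.0606) and without it (0.48, adjusted p = 0.139, and 1.04, adjusted p = 0.121). The Fcgr3 model difference was lost there without the block (1.48, adjusted p = 0.0778) and kept with it. No other member call of these contrasts differed between the blocked fit and that of all groups. Plain totals in place of TMM moved the median of all genes by −0.30 in GL261 BMDM against MG, −0.29 in the model difference, 0.44 in GL261 MG against GEMM MG, 0.31 in GL261 MG and −0.13 in GEMM MG against normal MG, 0.15 in GL261 BMDM against GEMM BMDM and −0.14 in GEMM BMDM against monocytes (log2), where RLE factors moved it by −0.11. Of calls, 23.2% were then higher in GL261 BMDM against MG, where TMM gave 61.1%, and 86.1% in GL261 MG against GEMM MG, where TMM gave 54.8%. They were 67.6% against 52.9% in GL261 MG over normal MG, 67.9% against 52.0% in GL261 BMDM over GEMM BMDM, and 8.7% against 37.2% in the model difference. DESeq2 gave 50.9% against 61% in GEMM BMDM over MG and 50.6% against 61.1% in GL261. The Fcgr3 call in GL261 BMDM against MG was lost with plain totals (0.18, adjusted p = 0.371, or 0.56 relative to the median of all genes), with RLE factors (0.44, adjusted p = 0.0606) and with no filter (0.43, adjusted p = 0.153). With plain totals, Fcer1g in GL261 MG against normal MG passed (0.48, adjusted p = 0.00792). Calls over all genes fell with only the groups compared, to 599 higher and 234 lower in GL261 BMDM against MG, where the fit of all groups gave 1646 and 1046, and to 7 and 14 in the model difference, where it gave 93 and 157. In the model difference DESeq2 gave 373 and 435, plain totals 39 and 407, limma-voom 162 higher and no filter 43 higher. GL261 BMDM against GEMM BMDM with only those groups had 707 lower, where all groups gave 1454. Groups of 3 libraries, and the shallower monocyte libraries, limit what differences could be called.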
